A study of Mus musculus with 2 samples.

Results

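The keratin genes outside simple epithelium were taken as the protein-coding genes of GENCODE M21 whose symbol is Krt followed by a digit, without Krt7, Krt8, Krt18 and Krt19 and without the Krtap genes of hair keratin-associated proteins. Of the 21755 protein-coding genes annotated on the autosomes and X, 49 met this rule, 26 in the chromosome 11 cluster and 23 in the chromosome 15 cluster. Chromatin opening was read by DNase-seq, which sequences the ends left where DNase I cuts accessible DNA, in whole ovary of female B6CASTF1/J mice, an F1 hybrid of C57BL/6 and CAST, aged 18 to 20 months. The 2 libraries form 1 group, carry different biosample entries under the same donor entry and are named biological replicates. The labels do not say whether they came from separate animals, so the spread between them may be technical. RNA was not measured, and a gene is called open here only where a deposited peak lies within 500 bp of one of its annotated starts, and without a start peak where none does.

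Keratins are the intermediate filament proteins of epithelial cells. An acidic type I keratin, encoded on mouse chromosome 11 with Krt18 as the exception, pairs with a basic type II keratin, encoded on chromosome 15, and each epithelium uses its own pairs. Krt5 and Krt14 mark the basal layer of stratified epithelium, Krt1 and Krt10 its layers above, and the inner root sheath and hair keratins the hair follicle, whereas Krt8 and Krt18 with Krt7 and Krt19 belong to simple epithelium such as the surface layer of the ovary. Stratified epithelium and hair are not parts of the ovary.

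Of the 49 genes, 4 (8.16%) had a start peak in both replicates, Krt10, Krt80, Krt86 and Krt1, whereas 62.3% of all protein-coding genes had one. A 5th gene, Krt14, had a start peak in replicate 2 alone, which made 5 of 49 (10.2%) in at least 1 replicate, against 66.4% of all protein-coding genes. None of the 49 genes had a peak that held its annotated 5′ end, in either replicate, a measure chosen after the data were seen. Of all protein-coding genes, 39.4% had such a peak in both replicates and 47.2% in at least 1. With the authors' shorter peak lists, 3 of the 49 genes (6.12%) were open in both replicates, against 58.0% of all protein-coding genes. In whole tissue, fewer cells of a type and less opening per cell cannot be told apart.

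The clusters held 51 regions listed in both replicates, 17 on chromosome 11 and 34 on chromosome 15, and 32 of the 51 lay between genes. The sequences of 5 of the strongest are shown because they stand for the kinds of place at which the clusters were open. They were read from the + strand of GRCm38, the C57BL/6 reference, and the capitals mark bases inside deposited footprints of both libraries, the short protected stretches within a peak. The first lies at chr11:99385921-99386180 in exon 7 of Krt10, the second at chr15:101977401-101977680 and the third at chr15:101984361-101984580 between Krt78 and Krt8, the fourth at chr15:101772761-101772980 between Krt71 and Krt72, and the fifth at chr15:101507201-101507420 between Krt83 and Gm49425.
Krt10 exon 7: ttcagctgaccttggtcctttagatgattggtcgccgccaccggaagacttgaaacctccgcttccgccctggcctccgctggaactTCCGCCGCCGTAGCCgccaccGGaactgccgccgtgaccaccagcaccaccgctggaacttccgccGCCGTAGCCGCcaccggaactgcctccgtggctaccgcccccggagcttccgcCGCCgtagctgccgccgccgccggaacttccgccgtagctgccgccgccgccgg
Krt78 to Krt8, CpG-rich site: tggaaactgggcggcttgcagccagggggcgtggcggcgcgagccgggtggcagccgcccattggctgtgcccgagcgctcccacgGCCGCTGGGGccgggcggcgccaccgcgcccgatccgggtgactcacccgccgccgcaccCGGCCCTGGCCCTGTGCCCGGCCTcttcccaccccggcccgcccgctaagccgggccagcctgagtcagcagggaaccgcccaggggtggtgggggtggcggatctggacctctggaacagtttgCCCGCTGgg
Krt78 to Krt8, CTCF site: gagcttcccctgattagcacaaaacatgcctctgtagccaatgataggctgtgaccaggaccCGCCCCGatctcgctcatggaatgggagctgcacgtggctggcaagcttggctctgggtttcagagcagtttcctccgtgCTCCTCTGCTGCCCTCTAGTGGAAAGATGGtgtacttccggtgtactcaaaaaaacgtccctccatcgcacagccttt
Krt71 to Krt72: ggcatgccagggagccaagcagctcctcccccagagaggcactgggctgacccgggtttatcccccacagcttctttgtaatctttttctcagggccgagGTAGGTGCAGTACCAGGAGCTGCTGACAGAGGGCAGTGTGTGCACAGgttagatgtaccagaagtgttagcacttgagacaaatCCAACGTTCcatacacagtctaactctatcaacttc
Krt83 to Gm49425: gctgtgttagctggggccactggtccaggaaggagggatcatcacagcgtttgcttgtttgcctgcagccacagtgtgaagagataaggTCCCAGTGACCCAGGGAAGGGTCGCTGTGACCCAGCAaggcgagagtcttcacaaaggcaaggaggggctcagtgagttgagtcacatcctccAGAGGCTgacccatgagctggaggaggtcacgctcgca

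The promoter of Krt10, at which neither replicate had a peak, is shown from RefSeq (GRCm38.p6) beside them, chr11:99389315-99389614 on the − strand, 250 bases before to 50 after the start, with the TATAAA element in capitals.
Krt10 promoter: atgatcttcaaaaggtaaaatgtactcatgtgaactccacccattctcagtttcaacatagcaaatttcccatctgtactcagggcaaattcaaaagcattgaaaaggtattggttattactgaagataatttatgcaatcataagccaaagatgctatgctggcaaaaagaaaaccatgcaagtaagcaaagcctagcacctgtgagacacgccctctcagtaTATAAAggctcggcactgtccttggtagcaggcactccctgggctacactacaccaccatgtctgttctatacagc

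The start peaks of Krt1 and Krt10 lay far from the promoters of these genes. Krt10, the type I keratin of the layers above the basal layer of epidermis (chr11:99385254-99389364, − strand), had a start peak of signal 4.27 in replicate 1 and 4.99 in replicate 2 (mean 4.63 ± 0.504, SD, n = 2). The signal is the authors' own value for a peak, scaled for depth. This peak ranked among the strongest 7.52% of peaks in replicate 1 and 7.43% in replicate 2, and no other keratin start exceeded 1.61 in either library.

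It covered a second annotated start of Krt10 inside the gene, 3204 bp downstream of the 5′ end in replicate 1 and 3184 bp in replicate 2. The open site filled coding sequence of exon 7 of 8, with a GC content of 70.4% and an observed to expected CpG ratio of 1.15. Of the 82 whole codons in it, 46 (56.1%) were glycine codons of the form GGN, against 24.6% over the whole coding sequence of the gene. A weaker peak within 500 bp of the same inner start had a signal of 0.571 in replicate 1 and 0.641 in replicate 2. It overlapped exon 6, and 3 of its 72 codons (4.17%) coded for glycine.

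Krt1, the type II partner of Krt10 (chr15:101845426-101850794, − strand), had a start peak of signal 0.850 in replicate 1 and 0.797 in replicate 2 (mean 0.824 ± 0.0376, SD, n = 2). The peak lay 274 bp downstream of an annotated inner start in replicate 1 and 414 bp in replicate 2, which is 4474 and 4614 bp downstream of the 5′ end. It fell in the last exon of the 9, and 50 of its 92 codons (54.3%) were glycine codons, against 21.8% over the whole coding sequence. Thus the strongest start peak of each member of this pair lay over coding sequence with a higher share of glycine codons than the whole coding sequence of its gene, and the 5′ ends of both genes had no peak. Krt77, a keratin next to Krt1 without a start peak, had a peak of the same kind in its last exon, of signal 0.678 in replicate 1 and 0.664 in replicate 2, in which 29 of 73 codons (39.7%) coded for glycine, against 15.8% of its whole coding sequence.

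Krt80 and Krt86 were the members with a peak near the 5′ end in both replicates. Krt80, a type II keratin of many epithelia (chr15:101347444-101370162, − strand), had a peak 359 bp upstream of its 5′ end, with a signal of 1.47 in replicate 1 and 1.61 in replicate 2 (mean 1.54 ± 0.0957, SD, n = 2). A second site, in an intron of Krt80, had a signal of 1.58 in replicate 1 and 1.29 in replicate 2. Krt86, a type II hair keratin (chr15:101473478-101479986, + strand), had a peak 238 bp upstream of its 5′ end in replicate 1 and 290 bp upstream in replicate 2. Its signal was 1.04 in replicate 1 and 0.563 in replicate 2 (mean 0.803 ± 0.340, SD, n = 2), and in replicate 2 the peak was not in the authors' shorter list. Of the 36-base sequences round the 5′ end of Krt86, 77.5% were unique in the genome, so that reads could be shared with near-identical hair keratins, although the peak itself was made of unique sequence.

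The pair of the basal layer had no start peak shared by both replicates. Krt14 had no start peak in replicate 1, and in replicate 2 a peak of signal 0.375 lay 200 bp downstream of its 5′ end, without a footprint and outside the shorter list, with a lowest false discovery rate of 0.0194 among its bases. Inside Krt14, in an intron 2310 bp from a further annotated start within the gene, replicate 1 alone had a peak of signal 0.904. Krt5 had no start peak in either replicate. The deposited lists take a base as cut above background at a false discovery rate below 0.05. For those of the 49 genes without a start peak, no such base lay within 500 bp of a start in either replicate.

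The simple keratins had signals of the same order. Krt8, the type II keratin of simple epithelium, had a start peak of 1.00 in replicate 1 and 1.5 in replicate 2 (mean 1.25 ± 0.353, SD, n = 2), and its peak held the 5′ end, which was so in both replicates for 1 of the 4 simple keratins and for none of the 49 genes. Krt19 had 0.678 in replicate 1 and 0.852 in replicate 2, and Krt7 had 0.506 in replicate 1 and 0.914 in replicate 2. These peaks too lay inside the annotated genes, at further annotated starts, 2521 and 2625 bp downstream of the 5′ end of Krt19 and 1178 bp downstream of that of Krt7. Krt7 also had a weaker shared region that ended 56 bp before its 5′ end, with 0.463 in replicate 1 and 0.461 in replicate 2. Krt18, the type I partner of Krt8, was open in replicate 1 alone, with a signal of 0.581, in a peak that held its 5′ end. In replicate 2, 14 bases near its start were listed as cut above background, with a lowest false discovery rate of 0.0367, but no peak was called. Of the 36-base sequences round the 5′ end, 80.1% were unique at Krt8, 85.0% at Krt18, 96.5% at Krt7 and 99.3% at Krt19.

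**Figure D1:**
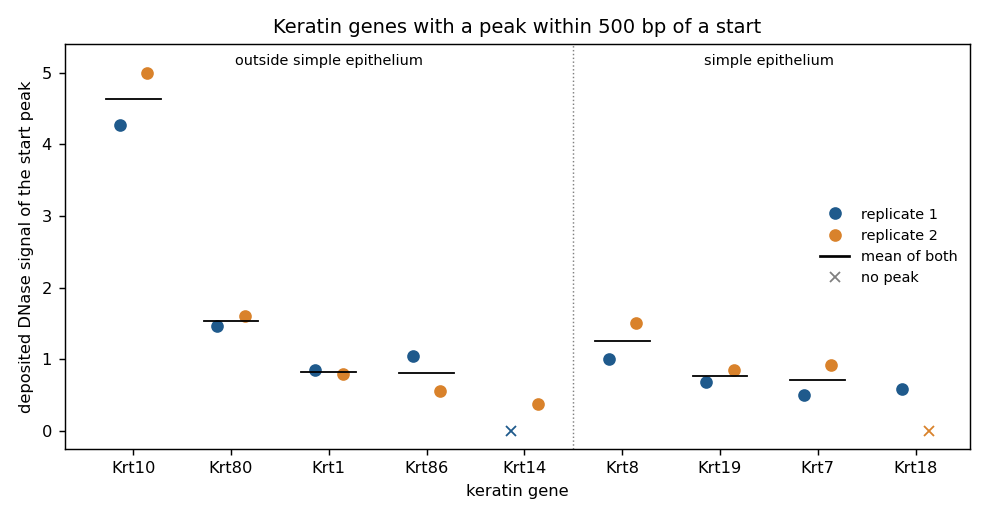
Deposited signal (y axis) of the strongest peak within 500 bp of a start of each keratin gene that had one (x axis), with 1 point per replicate, a bar at the mean of both and a cross where a replicate had no peak. Krt10 stands at 4.27 and 4.99, and every other keratin gene of either kind lies at 1.61 or below.

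By family, both replicates had a start peak at 1 of 13 type I epithelial keratins (Krt10), 2 of 13 type II epithelial keratins (Krt80 and Krt1) and 1 of 7 type II hair keratins (Krt86). The 4 type I and 3 type II keratins of the inner root sheath, the sheath that moulds the growing hair, had none, and neither did the 9 type I hair keratins. Of the simple keratins, 3 of 4 were open in both replicates. Of the 57 Krtap genes of the genome, whose proteins bind hair keratin filaments together, 1 was open in both replicates, Krtap11-1, with a signal of 0.517 in replicate 1 and 0.586 in replicate 2. None of the 23 Krtap genes inside the chromosome 11 cluster had a start peak in either replicate.

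Among the lists of genes that work with keratins, cornified envelope genes were open far less often than all genes (62.3%). The other lists were near that share. Of 20 cornified envelope genes, whose proteins are cross-linked into the shell of dead skin cells, 2 were open in both replicates, the transglutaminases Tgm1 and Tgm5, with signals of at most 0.625, and Sprr1a and Cdsn had a start peak in replicate 1 alone. Of 20 desmosome and hemidesmosome genes, which anchor keratin filaments to the cell membrane, 13 were open in both replicates (65.0%), near to the 62.3% of all genes. The strongest were Jup, which encodes plakoglobin, with 10.2 in replicate 1 and 15.9 in replicate 2, Pkp4 with 4.73 and 7.85, and the filament linker Plec with 3.07 and 3.52. The 5 without a start peak in either replicate were Dsc1, Dsg1a, Dsg1b and Dsg3, which encode cadherins of stratified epithelium, and Col17a1. The other cadherin genes of the list, Dsc2, Dsg2 and the keratinocyte marker Dsc3, were open in both replicates. Dsc3 had 0.431 in replicate 1 and 0.336 in replicate 2.

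Of 17 intermediate filament genes outside the keratins, 12 were open in both replicates (70.6%), against 62.3% of all genes. The strongest were Iffo2, with 11.8 in replicate 1 and 17.6 in replicate 2, and the lamin genes Lmna, with 8.85 and 11.5, and Lmnb1, with 7.12 and 9.15. Vim, which encodes the vimentin of connective tissue cells, had 3.53 in replicate 1 and 3.46 in replicate 2. The 5 without a start peak were the neural genes Nes, Nefh, Nefl and Prph and the lens gene Bfsp2. Other genes of these kinds were open in both replicates, namely Nefm, Ina, the glial gene Gfap and the lens gene Bfsp1. Their signals, in this order, were 0.344, 0.441, 1.95 and 0.872 in replicate 1 and 0.375, 0.610, 0.868 and 1.12 in replicate 2.

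Of 16 transcription factors of stratified epithelium, 9 were open in both replicates (56.2%), against 62.3% of all genes. They were led by Klf5 with 5.95 in replicate 1 and 7.56 in replicate 2, Grhl1 with 5.60 and 8.16 and Klf4 with 5.29 and 5.49. Trp63, the factor that defines the basal layer, had no start peak in either replicate, and neither did Ehf, Zfp750 and Ovol1. Of 9 hair and nail factors, 6 were open in both replicates (66.7%), against 62.3% of all genes. The strongest were Msx1 with 4.33 in replicate 1 and 3.95 in replicate 2, Cux1 with 2.29 and 2.83 and Msx2 with 1.49 and 1.07. Gata3, Foxn1 and Dlx3 had no start peak.

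**Figure D2:**
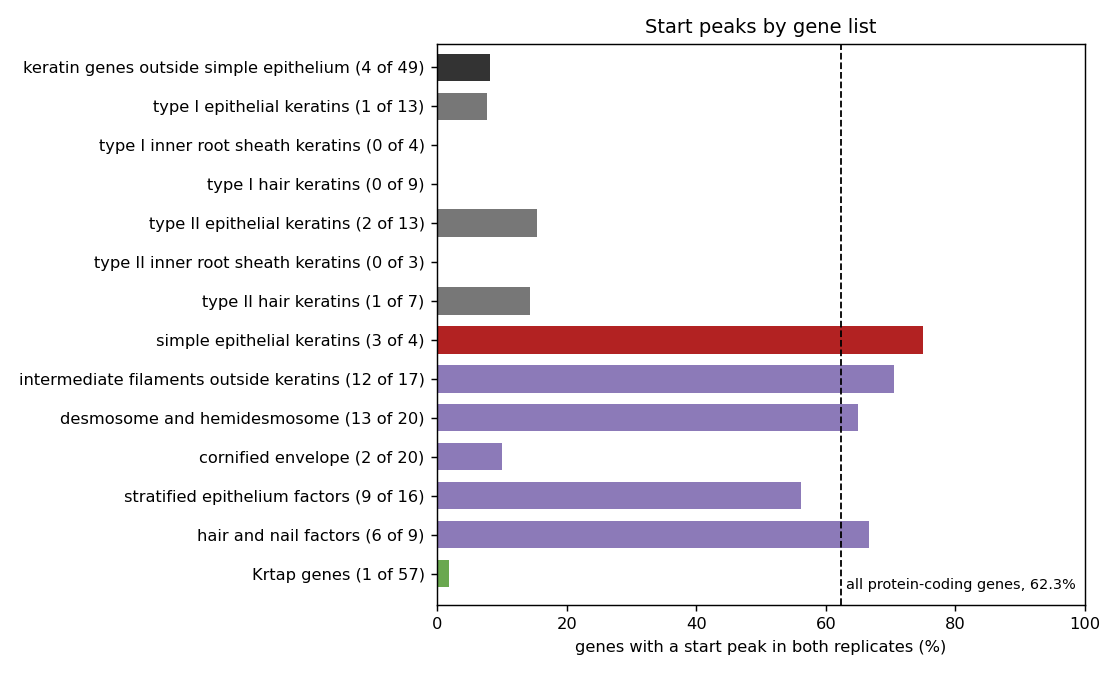
Share of genes with a start peak in both replicates (x axis, percent) for the 49 keratin genes, their families and the lists of partner genes (y axis, with counts); the dashed line marks all protein-coding genes at 62.3%. The keratin families outside simple epithelium, the cornified envelope list and the Krtap genes lie at 15.4% or below, and the other lists at 56.2% or above.

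The promoters of these genes were poor in CpG. Within 500 bp of the 5′ end the median observed to expected CpG ratio was 0.302 over the 49 genes, with a range of 0.108 to 0.583, against 0.558 over all protein-coding genes. When all genes were ranked by this ratio and divided into 3 equal parts, 25 of the keratin genes fell in the lowest part, 24 in the middle part and 0 in the highest. In the lowest part 1 of 25 keratin genes (4.00%) was open in both replicates, against 18.0% of all genes there, and in the middle part 3 of 24 (12.5%), against 74.0% of all genes there. Of those 3, Krt10 and Krt1 were open only by peaks inside the genes, outside the window in which the ratio was measured. The 4 simple keratins had a median ratio of 0.306, close to that of the other keratins, with 3 of the 4 open.

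The TATAAA element was frequent. It lay within 50 bp upstream of the 5′ end, on the gene's strand, in 18 of 49 keratin genes (36.7%), against 3.27% of all protein-coding genes and 6.73% of those in the lowest part by CpG ratio. In the promoter of Krt10 it begins 26 bases before the start. Of the 18 keratin genes with the element, 2 were open in both replicates (11.1%), Krt10 and Krt86, against 26.0% of all genes with it. The peak of Krt10 was not at that promoter.

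**Figure D3:**
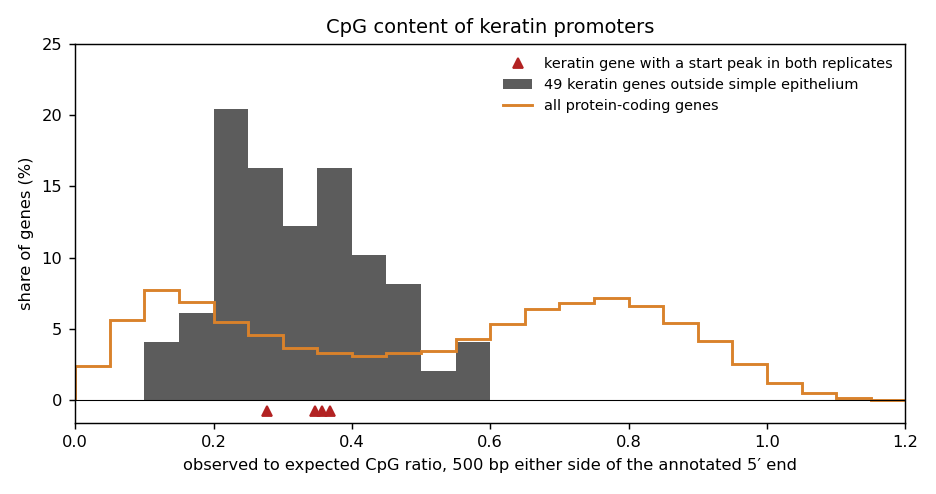
Share of genes (y axis, percent) by observed to expected CpG ratio in 500 bp either side of the annotated 5′ end (x axis, bins of 0.05), for the 49 keratin genes as bars and all protein-coding genes as a line, with triangles at the keratin genes open in both replicates. The keratin genes lie between 0.108 and 0.583, and the open ones are within that range at 0.277 (Krt80), 0.346 (Krt10), 0.357 (Krt1) and 0.369 (Krt86). The peaks of Krt10 and Krt1 lay inside the genes, outside the window measured.

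The clusters differed in how many open sites they held. The chromosome 11 cluster (chr11:99232761-100269871, 68 protein-coding genes) had 16.4 regions shared by both replicates per Mb, against 39.5 over the whole of chromosome 11. The chromosome 15 cluster (chr15:101347444-102032027, 29 protein-coding genes) had 49.7 per Mb, against 25.8 over the whole of chromosome 15, and the autosomes and X together had 24.6. Thus the chromosome 15 cluster as a whole was denser in open sites than its chromosome and the chromosome 11 cluster sparser, and without its block of Krtap genes the chromosome 11 cluster had 25.3 per Mb. The median signal was 0.829 in replicate 1 and 0.727 in replicate 2 on chromosome 11, 1.02 and 1.04 on chromosome 15, and 1.12 and 0.977 over the autosomes and X.

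Next to the chromosome 11 cluster, Smarce1, a chromatin remodelling subunit 1.74 kb before it, had a start peak of 1.78 in replicate 1 and 1.25 in replicate 2, and the translation factor gene Eif1 beyond its other end had 16 and 21.9. Eif4b, a translation factor gene beyond Krt18 on chromosome 15, had 10.3 and 16.2. The gene before the chromosome 15 cluster, 6030408B16Rik, had no start peak.

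On chromosome 11 the open sites lay in the outer parts. The first part, Krt222 to Krt40, had 22.6 shared regions per Mb, and the last part, Krt13 to Krt42, which holds Krt14 and Krt19, had 45.9. The block of Krtap genes between them had 4.51 per Mb, although only 81.5% of its 36-base sequences were unique. The 94.4 kb from Krt33a to Krt36, with 7 type I hair keratin genes and 95.3% unique sequence, had no peak in either replicate. The 25.3 per Mb outside the Krtap block came from 15 shared regions. Among these were the 7 of the last part, all of which lay in the simple keratin Krt19 or between Krt19 and Krt9.

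The longest stretch without a peak in either library, chr11:99585401-100004940, ran for 419.5 kb and held 35 protein-coding genes, 18 of them Krtap genes. Of 111909 such stretches in the genome, 412 were as long, and these made up 10.4% of the genome, but only 4 held as many protein-coding genes, with this stretch counted among them. Next to it, beyond a short interval with peaks, the hair keratins lay in a stretch of 105 kb. Stretches as long as that made up 36.5% of the genome, and 120 of the 111909 held as many protein-coding genes. A stretch of 74.7 kb at the end of the cluster held Krt16 and Krt17, keratins of wounded skin and of the hair follicle, and Krt42. Stretches of at least this length made up 44.8% of the genome.

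On chromosome 15 the part from Krt80 to Krt75, with the type II hair keratins, had 57.4 shared regions per Mb, and the part from Krt6b to Krt78, with Krt5, Krt1 and the inner root sheath keratins, had 32.3. The last 77.7 kb, from the end of Krt78 to the end of Krt18, had 141 per Mb. Without that interval the cluster had 23 shared regions, 37.9 per Mb. A stretch of 119 kb with Krt6b and Krt6a, near-identical keratins of the hair follicle and of wounds, had no peak, but 80.0% of its 36-base sequences were unique. Krt76 and Krt4, keratins of the mouth lining, lay in a stretch of 66.5 kb without a peak and with 96.0% unique sequence. Neither length was unusual: stretches of at least 119 kb made up 33.6% of the genome, and those of at least 66.5 kb made up 47.8%.

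**Figure D4:**
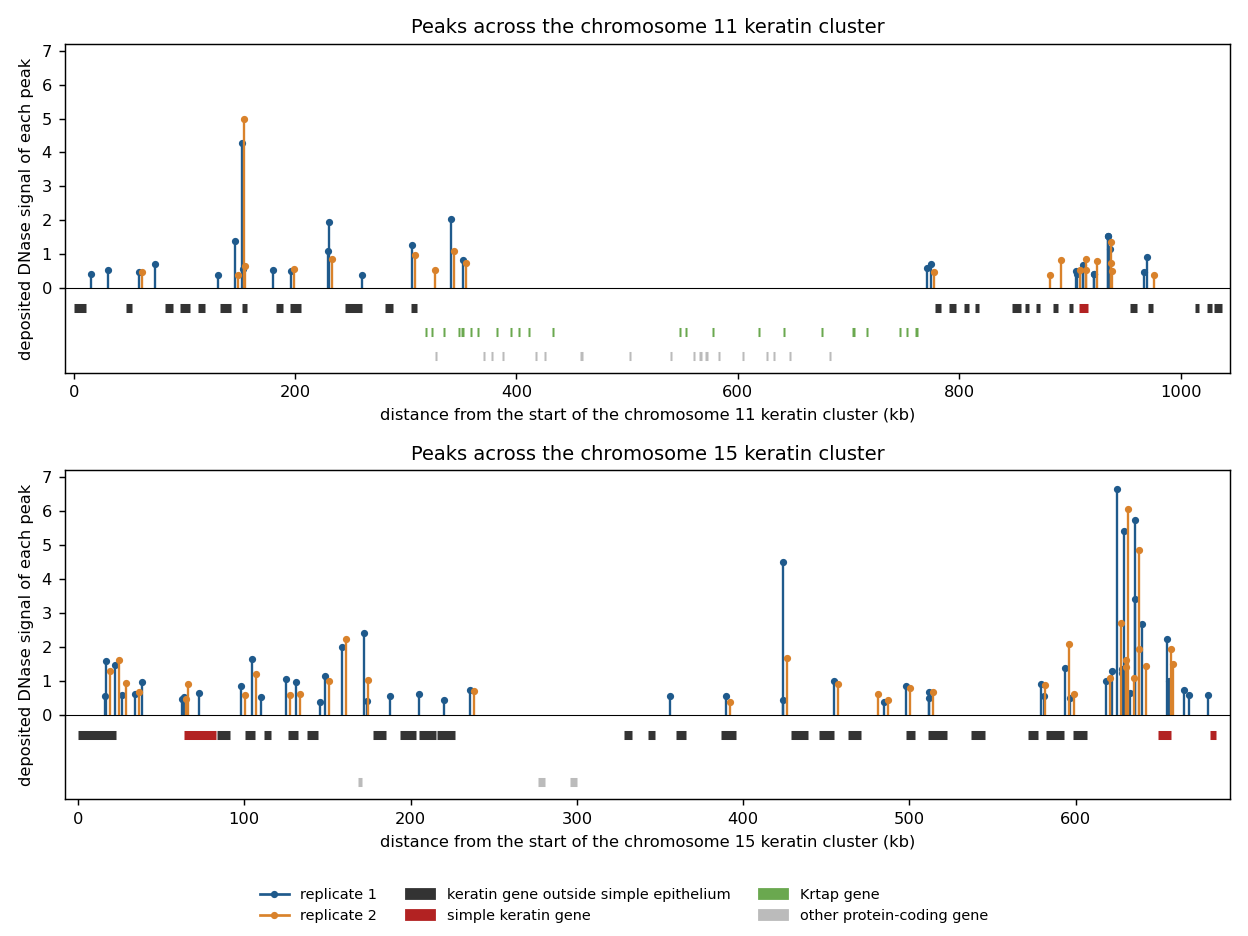
Deposited signal (y axis) of every region in each keratin cluster against its distance from the cluster's start (x axis, kb), blue for replicate 1 and orange for replicate 2 (points drawn 1.2 kb to either side), with genes as blocks below. On chromosome 11 no peak lies in the 419.5 kb that hold 18 of the Krtap genes or over the hair keratins from Krt33a to Krt36, and the tallest ones on chromosome 15 stand before the last 2 simple keratins, at up to 6.64 in replicate 1 and 6.05 in replicate 2.

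Most of the 51 shared regions were not at promoters. Between genes lay 32 (62.7%), in exons away from a start 7 (13.7%), in introns 3 (5.88%), at a start of the 49 keratin genes 5 (9.80%, of which 2 at Krt10) and at a start of a simple keratin 4 (7.84%). More than 2 kb from any start of a protein-coding gene lay 35 (68.6%), near to the 61.8% of shared regions over the autosomes and X. Lying away from starts was thus not particular to the clusters. The shares by class are given for the clusters alone. Inside the bodies of the 49 genes there were 10 shared regions in 9 genes, and 9 of the 10 overlapped coding sequence. Besides the sites of Krt10, Krt1 and Krt77 described above they included the last exons of the hair keratins Krt88, with 1.65 in replicate 1 and 1.19 in replicate 2, and Krt86, with 0.947 and 0.610, and exon 5 of the hair keratin Krt40, with 1.28 and 0.969. Glycine codons made up 23.5% of the codons of the site in Krt88, against 11.8% of its whole coding sequence, 16.9% against 7.66% in Krt86, and 2.38% against 3.66% in Krt40. The intestinal keratin Krt20, with 0.517 and 0.563, and the inner root sheath keratin Krt71, with 0.538 and 0.375, each had a weaker site in exon 6, with 0% glycine codons against 5.37% in Krt20 and 4.76% against 8.83% in Krt71.

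By mean rank over the replicates, the strongest sites of either cluster stood between the keratin Krt78, without a start peak, and the open Krt8. In these 42.4 kb, upstream of the 5′ end of Krt78 and beyond the 3′ end of Krt8, there were 9 shared regions within 21.5 kb, whose signals had a median of 2.68 in replicate 1 and 1.62 in replicate 2. They began 8.30 kb from the 3′ end of Krt8.

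The CpG-rich site printed above had 5.41 in replicate 1 and 6.05 in replicate 2 (mean 5.73 ± 0.449, SD, n = 2). Its GC content was 76.8% and its CpG ratio 0.727, although the nearest annotated start of any gene, that of Krt78, was 23114 bp away. It held TGANTCA, the AP-1 motif, at 2 places, both outside the footprints of both libraries. The CTCF site had 5.74 in replicate 1 and 4.85 in replicate 2 (mean 5.30 ± 0.625, SD, n = 2), and all 12 bases of its match to the motif of CTCF, a protein that anchors chromatin loops, lay in footprints of both libraries. A neighbouring site at chr15:101984001-101984260, with 3.41 in replicate 1 and 1.93 in replicate 2, also had its CTCF match wholly inside shared footprints.

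Other strong sites differed between the libraries by more. The site at chr15:101973781-101973980, also between Krt78 and Krt8, had 6.64 in replicate 1 and 2.71 in replicate 2 (mean 4.68 ± 2.78, SD, n = 2). The site between the inner root sheath keratins Krt71 and Krt72 had 4.51 in replicate 1 and 1.66 in replicate 2 (mean 3.08 ± 2.02, SD, n = 2). It lay beyond the 3′ end of Krt72, 5713 bp from an annotated start inside that gene. The site between Krt83 and Gm49425 was even in both, with 1.98 in replicate 1 and 2.24 in replicate 2 (mean 2.11 ± 0.180, SD, n = 2), and lay 1110 bp from a processed pseudogene, Gm49424. An intron of Krt8 held a site of 2.23 in replicate 1 and 1.94 in replicate 2.

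On chromosome 11 the sites outside Krt10 had at most 2.05 in replicate 1 and 1.36 in replicate 2. The next by rank was a site with a CTCF match between Krtap3-1 and Krtap1-5, with 2.05 in replicate 1 and 1.09 in replicate 2. Further along the cluster lay a site between Krtap1-4 and Krtap1-3, with 0.829 in replicate 1 and 0.743 in replicate 2, that borders the long stretch without peaks. A site between Krt19 and Krt9, a keratin of palm and sole skin, had 1.53 in replicate 1 and 1.36 in replicate 2 and lay 19496 bp from the start of Krt19. A site with a CTCF match between Krt20 and Krt23 had 1.95 in replicate 1 and 0.860 in replicate 2.

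Sites with a CTCF match were lower in replicate 2. In 200 bp round the centre, with at most 1 mismatch and on either strand, 11 of the 51 regions (21.6%) had a match, against 15.5% of all shared regions and 19.3% of those more than 2 kb from a start. The median log2 ratio of replicate 2 to replicate 1 was -0.90 over these 11 sites, 9 of them lower in replicate 2, and -0.01 over the 40 sites without a match, 21 of them lower in replicate 2. Over all shared regions more than 2 kb from a start it was -0.88 for 7734 regions with a match and 0.03 for 32331 without, a shift of similar size outside the keratin clusters. This comparison was chosen after the values of the strongest sites were seen, and its cause was not tested.

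**Figure D5:**
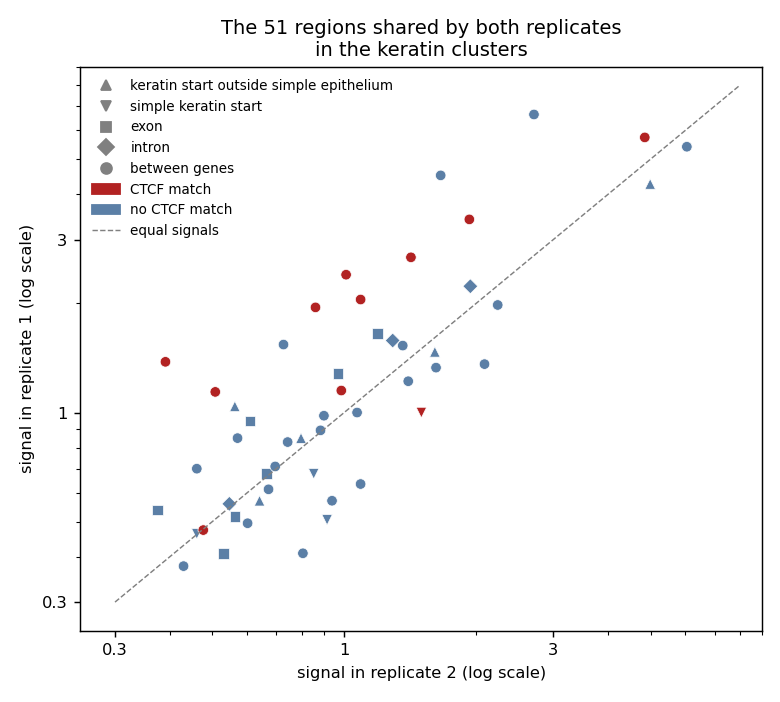
Signal in replicate 1 (y axis, log scale) against signal in replicate 2 (x axis, log scale) for the 51 regions of the keratin clusters listed in both libraries, by position (symbol) and by a CTCF match within 200 bp round the centre (red). Of the 11 sites with a match 9 lie above the line of equal signals, and the 40 without one fall on both sides of it.

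Other motifs, searched without a mismatch on both strands in the same 200 bp, were in 0 to 11 of the 51 regions. TGANTCA (AP-1) was in 8 of 51 regions (15.7%), against 10.2% of all shared regions and 13.4% of those more than 2 kb from a start. In the same order, GGGNGGGG (KLF and SP factors) was in 11 (21.6%), against 20.6% and 11.6%. AGATAA, which GATA factors bind, was in 4 (7.84%), against 9.94% and 13.4%. CCGGAAG (ETS factors) was in 4 (7.84%), against 4.77% and 1.71%. CAAGGTCA, the motif of the NR5A factors of steroid-making cells, was in 0 of 51, against 4.91% and 6.71%. The sequence printed for the Krt10 site does hold it on the − strand near one end, outside the 200 bp searched. AACNGGTT, the motif of the GRHL factors of epithelium, was in 0 of 51, against 1.13% and 1.24%. A match is a description of the letters only, and at these counts a few sites move each share.

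At least 1 deposited footprint lay in 82.4% of the 51 regions in replicate 1 and 88.2% in replicate 2, against 83.2% and 88.8% of all shared regions. The mean number of footprints per region was 2.06 in replicate 1 and 2.18 in replicate 2, against 2.30 and 2.62 in all shared regions. Of 105 footprints of replicate 1 in these regions, 52.4% overlapped one of replicate 2, against 57.9% in all shared regions. The peaks within 500 bp of a start of the 49 genes held 11 footprints in replicate 1 and 9 in replicate 2, of which 5 and 4 lay in the strong peak of Krt10.

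Of the markers of granulosa cells 6 of 6 had a start peak in both replicates, of theca and luteal cells 5 of 5, of stroma 4 of 4, of the surface epithelium 4 of 6, which were Lhx9 and the simple keratins Krt7, Krt8 and Krt19 already described, and of the oviduct epithelium 1 of 3, Foxj1. Of 12 keratinocyte markers 5 did, Dsc3, Krt1, Krt10, Perp and Sfn. Those of Krt1 and Krt10 were the peaks inside the genes described above. Dsg3, Ivl, Krt5, Lor and Trp63 of this list, and Upk3b of the surface epithelium list, had no start peak in either replicate. Of 6 hair follicle markers 1, Hoxc13, had a start peak in both replicates, and Foxn1, Krt25, Krt31, Krt71 and Krt81 had none. Over all protein-coding genes the share with a start peak in both replicates was 62.3%. The part of other cell types in the keratin peaks was not tested.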

How the data were processed

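DNase-seq peaks of 2 libraries of aged mouse ovary, 1 group of 2 replicates, were analysed. Each library has 2 narrow peak lists, a footprint list and a list of bases cut at a false discovery rate (FDR) below 0.05, all on mm10 and made from that library alone, as the accompanying deposited notes say. The peak signal was scaled for depth by the authors: all values (100%, within 0.05 of a step) are whole multiples of 0.0108 in replicate 1 and 0.00782 in replicate 2. The footprint column holds a constant label of 0.01 in the deposited files. Not given in the sources used here are the aligner, the callers, the handling of CAST alleles and the total depth, so no counting intervals are given.

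The longer lists (95898 peaks in replicate 1 and 83982 in replicate 2) were used. A start peak overlaps 500 bp either side of any annotated transcript start of a protein-coding gene in GENCODE M21, and overlapping peaks (at least 1 bp) of both libraries were merged into shared regions. Uniqueness was counted over 36-base sequences of the reference. RefSeq held promoters of 33 of the 49 genes. For sites inside genes, exons were numbered on the coding transcript of longest span. Scripts used Python 3.11.15, NumPy 2.4.6 and pandas 2.3.3 and were tested on simulated data. With 1 group nothing was tested: values, means ± SD and the share of all genes stand side by side. The members, gene lists and motifs were chosen with earlier results of these data known. Named were all members with a start peak, Krt1, Krt5, Krt10 and Krt14, the simple keratins, the neighbours of the clusters, the strongest shared regions (up to 10 per cluster), and in each partner list the 3 strongest genes and, where 5 or fewer, those without a start peak. Vim, Krtap11-1, the weaker genes of the cornified envelope list and the weaker sites inside genes were named after their values were seen. So were Nefm, Ina, Gfap, Bfsp1, Dsc2, Dsg2, the values of Dsc3 and the weaker region of Krt7.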

Additional observations from a re-analysis of the deposited data

How the results depend on the processing

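Across 41 alternatives, 21 left a count within 1.5 times or a value within 1 SD, and 20 moved it. Open keratin genes (4 in both replicates, 5 in at least 1) fell to 1 and 1 with the strongest 20000 peaks (Krt10), to 1 and 3 with 250 bp, to 2 and 3 with the annotated 5′ end only (Krt80 and Krt86 in both replicates) and to 0 and 0 where the peak had to hold the 5′ end, an alternative chosen after seeing the data. With 2000 bp they were 7 and 9, with Krt73, Krt88 and Krt79 added in both replicates. The 17 shared regions on chromosome 11 became 9 with the shorter lists and 1 with the strongest 20000 peaks, and each library alone had 21 to 29 regions. The 34 on chromosome 15 became 7 with the strongest 20000 peaks, and each library alone had 35 to 52. The share of shared regions at a start of the 49 genes, 9.80%, was 3.92% with 250 bp, 15.7% with 1000 bp, 17.6% with 2000 bp and 3.92% with the 5′ end only, and 6.17% to 10.7% in each library alone. No paired analysis was possible because there is a single group.

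With 2 libraries and no read totals, a missing peak says only that none was called. Unique sequence covered 88.9% of the chromosome 11 cluster and 92.2% of the chromosome 15 cluster, and 12 of the 49 genes had under 90% unique 36-base sequences round the 5′ end, with a lowest value of 67.4% at Krt6a.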
